A study of Homo sapiens with 8 samples.

Results

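Mitochondrial ribosomal proteins are the nuclear-encoded protein parts of the ribosome that works inside mitochondria. They were taken here as the gene regions whose transcripts carry a symbol that starts with MRPL or MRPS and a digit, plus DAP3, PTCD3, AURKAIP1, CHCHD1 and GADD45GIP1. The rule matched 87 of the 20165 regions counted, 7 of which hold no counted coding sequence and leave MRPL34, MRPS12 and MRPL36 without a value. The remaining 80 members are 29 proteins of the small subunit, 50 of the large subunit and MRPS36, which is now placed in a metabolic enzyme complex and was put in neither subunit. Symbols do not always name the subunit: MRPS30, MRPS18A and GADD45GIP1 sit in the large subunit. Each of 74 members is a region of 1 gene, whereas MRPL38, MRPL12, MRPL30, MRPS17, MRPS24 and MRPS28 share a region with a neighbouring gene, so their values belong to the joined region.

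Ribosome profiling (Ribo-seq), which sequences the mRNA pieces that ribosomes shield from RNase, was done on OVCAR3, an established line of human ovarian cancer cells, in 4 groups of 2 libraries. In the siRNA experiment, cells were transfected with siRNA at 30 nM, either control siRNA (siControl) or siRNA directed against OARD1 (siTARG1), the gene for the ADP-ribose hydrolase TARG1. In the RACK1 experiment, both groups were stably transduced lines that carried doxycycline-inducible pTRIPZ knockdown of their own RACK1, a protein of the cytosolic small ribosomal subunit, and re-expressed HA-tagged RACK1 as wild type (RACK1-WT) or with its 3 mono-ADP-ribosylated (MARylated) acidic residues replaced (RACK1-Mut), under 1 µg/ml doxycycline. Every group was harvested after 48 h. The comparisons ask whether footprints on mRNAs shift when the hydrolase is depleted or when these residues of RACK1 are replaced. The study reported reduced MARylation of the mutant protein.

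The mitochondrial ribosome translates the handful of mRNAs made from mitochondrial DNA, which encode subunits of the respiratory chain and the ATP synthase. Its own proteins are translated in the cytosol and imported, so the footprints described here are those of cytosolic ribosomes on mRNAs for mitochondrial ribosomal proteins. A core of these proteins descends from the bacterial ribosome, while others were added in the mitochondrial lineage, and the complex is richer in protein and poorer in RNA than its bacterial relative.

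Coding counts summed to between 3100947 and 6604190 in a library, of which the members took 19853 to 46312. The targeted gene was lower where the labels say so: normalized counts of OARD1 were 121.3 and 69.1 in siControl cells and 5.8 and 6.7 in siTARG1 cells. RACK1 had 23330 and 23590 normalized counts in RACK1-WT cells and 17740 and 17270 in RACK1-Mut cells, and the re-expressed and the residual RACK1 cannot be told apart. RACK1 footprints were thus lower where the residues were replaced, and these differences between the groups cannot be told apart as sources of a change. All 10 markers of ovarian carcinoma epithelium that were looked up (PAX8, MUC16 and EPCAM among them) had at least 10 counts in every library. Their summed level was 11550 and 11160 per 1000000 coding counts in siControl against 7457 and 8592 in siTARG1, and 10870 to 11240 over the RACK1 libraries. The markers did not share 1 direction in siTARG1 cells: both libraries lay below both siControl libraries for 4 of them (KRT8, KRT18, MUC16 and WT1) and above for 5 (CDH1, KRT7, EPCAM, FOLR1 and MSLN). KRT8 was at 3310 and 3403 per 1000000 coding counts in siControl and 1604 and 1846 in siTARG1, and CDH1 at 206.5 and 216.1 against 681.8 and 701.4. Of 9 markers of other cell types, CD3E and CDH5 were at 0 in all 8 libraries, the collagen genes COL1A1 and COL1A2 alone reached 10 counts, and the list summed to 24.8 to 41.5 per 1000000 coding counts. The part of these marker shifts in the results on the members was not tested. In bulk lysates, fewer cells that use a gene and less of its mRNA per cell cannot be told apart. Per the study's methods, the 2 libraries of a group come from independent samples.

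To see what the members share besides their function, their promoters were read from RefSeq (GRCh38.p14), as the 250 bases before to 50 bases after the annotated start, and 71 of the 80 members matched an entry. On either strand, the letters CCGGAAG, the core bound by ETS factors, were found in 29 of the 71 promoters (40.8%), against 18.7% of 10541 promoters of genes tested and 10.7% of all 27305 promoters. The letters AAGATGGC, bound by YY1, were found in 20 of them (28.2%), against 5.19% of the genes tested and 3.03% of all. CCGGAAG was in 11 of 28 small subunit and 18 of 43 large subunit promoters, and AAGATGGC in 6 (21.4%) and 14 (32.6%) of them, differences that have no test. The NRF1 core CATGCGC was found in 7 of the 71 (9.86%), against 7.29% of the genes tested. AAGATGGC contains a start codon, and in 14 of the 20 members with a match the annotated start codon lies within the letters AAGATGGC, as in MRPS18A. Matches to CCGGAAG lay at a median of 22 bases before the annotated transcript start. Matches to AAGATGGC lay at a median of 11 bases after it, with 17 of 21 matches downstream. The following 30-base stretches, with the matched letters in capitals, are shown because they come from the members with the densest footprints and from members that fell in siTARG1 cells; in MRPS16 the match is on the opposite strand.

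AURKAIP1 (chr1:1375186-1375215, minus strand): ttggggacggaCCGGAAGtgcccgagggcg

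MRPL43 (chr10:100987497-100987526, minus strand): tcgtcccggaaCCGGAAGcctcgaggttta

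MRPL20 (chr1:1407296-1407325, minus strand): caggggctgacCCGGAAGcgctcgtgacca

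MRPS16 (chr10:73252621-73252650, minus strand): cggatcatccgCTTCCGGagtcgaggtttt

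MRPS18A, start codon (chr6:43687764-43687793, minus strand): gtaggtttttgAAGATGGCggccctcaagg

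MRPL40 (chr22:19432523-19432552, plus strand): ggggcgcacgcCCGGAAGcggcgagggtag

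A match to these letters describes the sequence and does not show that a factor binds there. MRPL9, MRPL18 and MRPL19, which had the largest falls in siTARG1 cells, held neither set of letters in this window, and MRPL10 had no promoter entry.

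Footprint density, the coding counts per kilobase of coding sequence per 1000000 coding counts, allows levels to be compared between genes. It spanned 30.1-fold over the single-gene members, from a mean of 20.3 over the 8 libraries for MRPS31 to 611 for AURKAIP1. AURKAIP1, a small subunit protein first named as a partner of Aurora kinase A, ranged from 507 to 729, and each of its libraries lay above every library of MRPL20 (270 to 478). MRPL43, a large subunit protein of the mitochondrial lineage that came between them, ranged from 393 to 511 and overlapped with both. MRPS34, of the small subunit, ranged from 296 to 411 and overlapped with MRPL20. These are the densest members in the plot of density by member. At the low end, MRPS31 (15.8 to 30.4) and MRPL46 (22.5 to 28.0) overlapped. The annotation holds 4 pseudogenes named after MRPS31 and 0 named after MRPL46, and the part of such copies in density was not tested. The coding length of a joined region includes that of the neighbour, and the MRPL38 region had a density of 1.16, the MRPS17 region 18.3, the MRPS24 region 18.6 and the MRPL30 region 29.8.

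**Figure D1:**
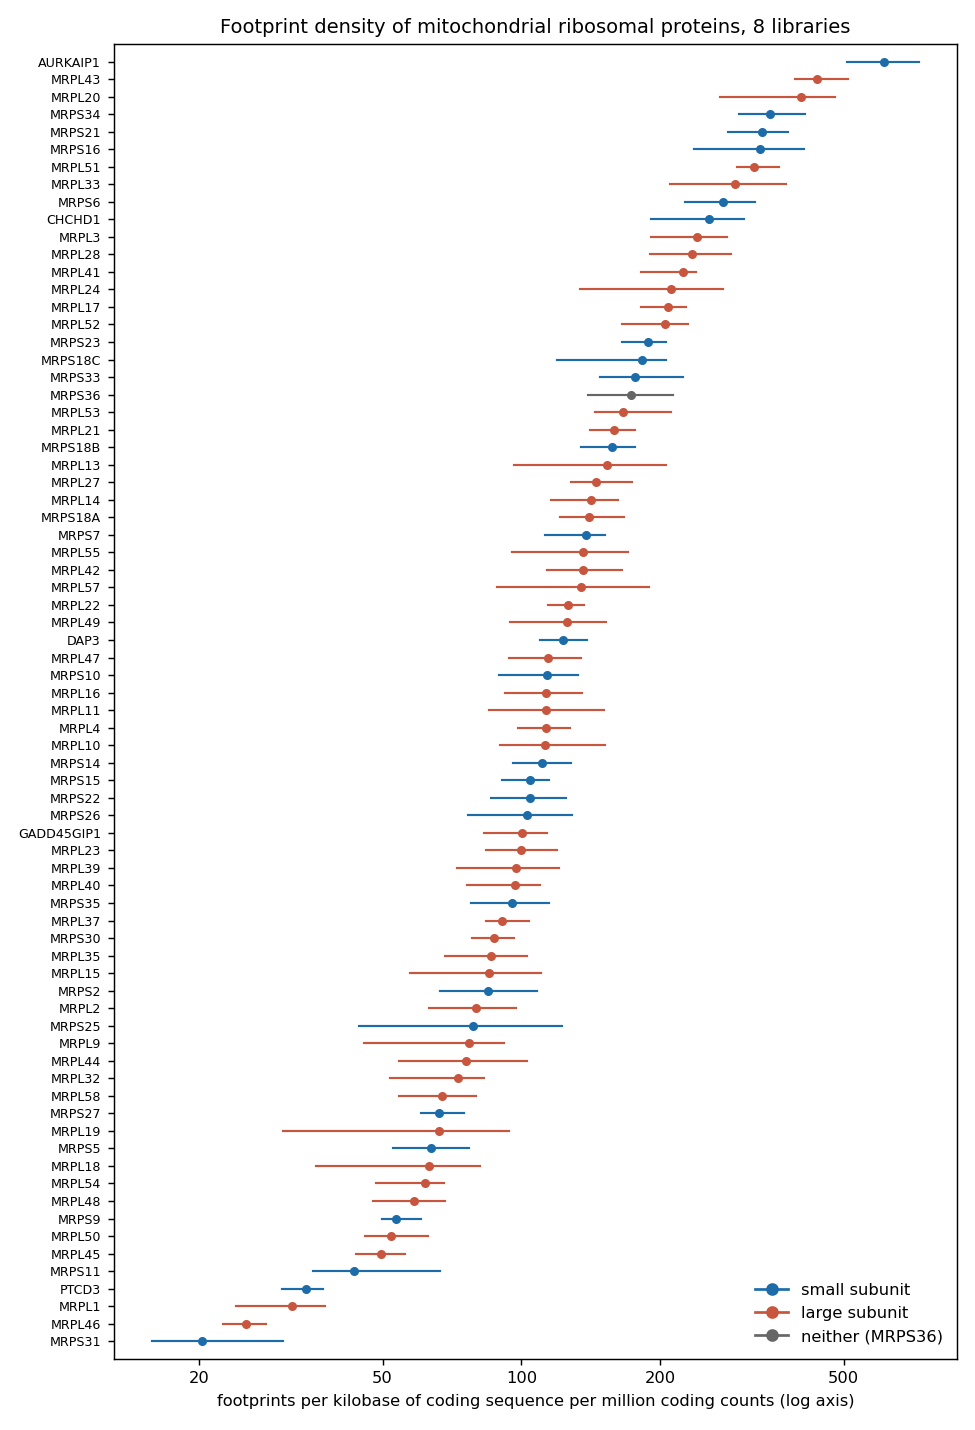
Footprint density (footprints per kilobase of coding sequence per 1000000 coding counts, log axis) of the 74 single-gene members, with the mean over 8 libraries as a point and the lowest to highest library as a line. Blue marks the small subunit, red the large subunit and grey MRPS36. Small and large subunit members are mixed along the whole order, from MRPS31 at 20.3 to AURKAIP1 at 611.

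The 5 members without an MRP symbol were spread over this order. DAP3, a GTP-binding protein of the small subunit, had a mean density of 123. PTCD3, a pentatricopeptide repeat protein of the small subunit, had 34.1, and CHCHD1, a small subunit protein with a twin-cysteine fold, had 255. GADD45GIP1, which lies near the exit of the nascent chain in the large subunit, had 100.5, which was 0.886 times the median member.

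The subunits were close to each other in density. The median small subunit member divided by the median large subunit member gave 1.03 ± 0.0849 (SD over 8 libraries), from 0.917 to 1.02 in the siRNA experiment and from 1.06 to 1.12 in the RACK1 experiment. With exon counts per kilobase of exon the ratio was 0.872, so its side of 1 rests on the region counted. The median density of the single-gene members was 109.8 to 120.3 in a library, whereas the cytosolic ribosomal proteins had a median of 1061 to 1189, a ratio of 9.22 to 10.8. The upper quartile was 2.13 to 2.36 times the lower quartile in the mitochondrial set and 1.94 to 2.14 times in the cytosolic set, and it was the higher of the 2 in the mitochondrial set in every library except siTARG1 replicate 1.

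Counts summed over the subunits stood in nearly the same proportion in every library. The small subunit took 40.7% and 40.8% of the subunits' counts in siControl, 40.4% and 40.5% in siTARG1, 40.1% and 40.9% in RACK1-WT, and 40.5% and 40.8% in RACK1-Mut. This is a difference of -0.29 percentage points in siTARG1, where the groups did not overlap, and 0.15 points in RACK1-Mut, where they did. All members together took 0.659% and 0.672% of coding counts in siControl and 0.635% and 0.631% in siTARG1. In the RACK1 experiment they took 0.701% and 0.714% in RACK1-WT and 0.714% and 0.718% in RACK1-Mut. With 2 libraries against 2, the exact two-sided permutation test cannot go below p = 0.33, so none of these shares can pass it.

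**Figure D2:**
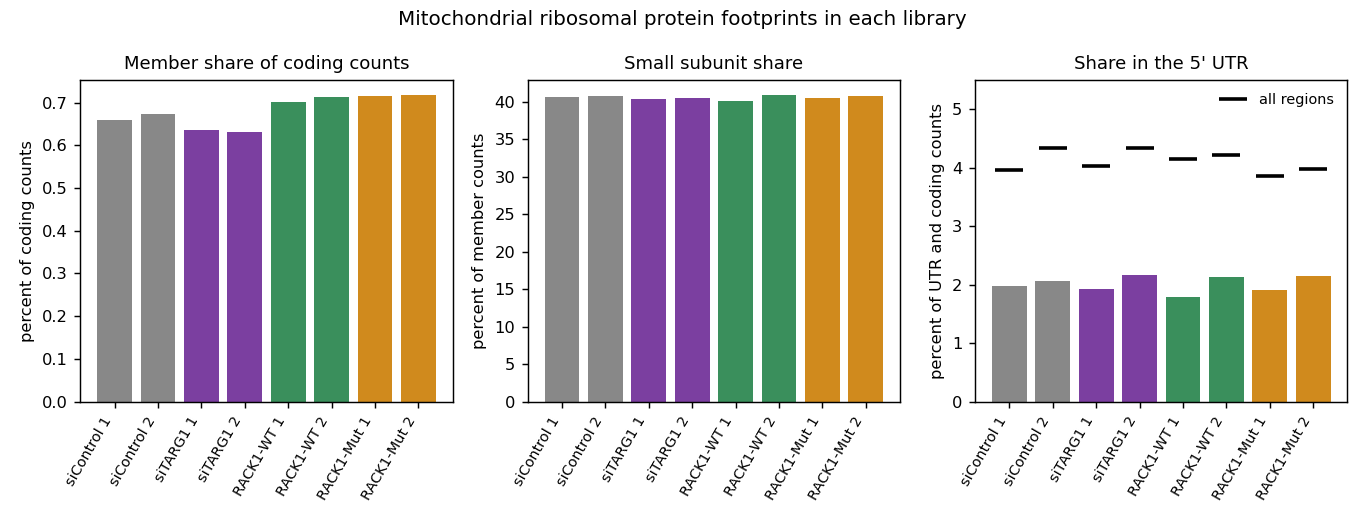
Bars give, for each of the 8 libraries, the members' share of all coding counts (left), the small subunit's share of the subunits' counts (middle) and the share of the members' untranslated and coding counts that lay in the 5′ UTR (right), all in percent from 0. Black dashes in the right panel give the same 5′ UTR share over all regions. The small subunit's share stays between 40.1% and 40.9%, and the members' 5′ UTR share lies below that of all regions in every library. The 5′ UTR shares are not corrected for UTR length.

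Fewer of the members' footprints lay upstream of the coding sequence than over the regions as a whole. The 5′ UTR held 1.79% to 2.16% of the members' untranslated and coding counts in a library, against 3.85% to 4.34% over all regions, shares that are not corrected for UTR length. The median member had 0.343% over the 8 libraries, while the median region tested in the siRNA experiment had 1.55%. By subunit the medians were 0.283% (small) and 0.396% (large). A total of 12 members had no 5′ UTR count, and 9 members (11.25%) had at least 5%, against 25.6% of the regions tested. Named after their values were seen, these 9 included MRPL11 with 18.5% (13.4% to 28.1% over the libraries), MRPL55 with 15.3% (12.5% to 20.5%) and MRPL42 with 9.95% (6.76% to 12.2%). The 9 members held 49.98% of all 5′ UTR counts on the set. The medians and the counts of members are not corrected for UTR length either. Members with a short 5′ UTR, or with none counted, were not set apart. The part of UTR length in these differences was not tested.

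In siTARG1 cells, 9 of the 80 members (11.2%) had fewer footprints at an adjusted p under 0.05 (DESeq2 Wald test), against 9.19% of the 12056 regions tested. A single member (1.25%) had more, against 7.18% of all regions. With DESeq2, the share that fell is thus near the background, while the share that rose is below it. At an unadjusted p under 0.05 there were 22 members (27.5%), against 26% of all regions. Both siTARG1 libraries lay below both siControl libraries for 35 members (43.8%), against a background of 31.4%, and above them for 15 (18.8%), against 31.2%. The median log2 fold change of the members was -0.15, with 52 of 80 below 0, beside a median of 0.00 over all regions. That median was nearer to 0 without the trend with coding length (-0.08) or over the 40 single-gene members with no pseudogene named after them (-0.07). The size of the set that passed depended on the test. The quasi-likelihood test of edgeR called 21 members lower (26.2%) and 2 higher (2.5%), the 10 above among them. Over all regions it called 15.4% lower and 13.4% higher, so with edgeR the share that fell lay above the background. The members' DESeq2 SE was smaller, with a median of 0.186 against 0.284 over all regions. Its part in the shares called by either test was not tested. With 1 library left out, 3 members were called without siTARG1 replicate 1 and 2 without any of the others.

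The lower members of the large subunit with the largest falls were MRPL9, MRPL19 and MRPL18, all counterparts of bacterial ribosomal proteins. MRPL9 (chromosome 1, 151732123 to 151735972, minus strand, GRCh37) had 258.4 and 269.4 normalized counts in siControl and 154 and 129.3 in siTARG1, a log2 fold change of -0.89 (SE 0.205, DESeq2 adjusted p 0.000229). MRPL19 (chromosome 2, 75873909 to 75917977, plus strand) had 181.9 and 168.1 in siControl and 94.9 and 94.5 in siTARG1, a log2 fold change of -0.89 (SE 0.244, DESeq2 adjusted p 0.00298). MRPL18 (chromosome 6, 160210844 to 160219468, plus strand), whose bacterial counterpart binds 5S rRNA, had 116 and 146.6 in siControl and 68.3 and 75.3 in siTARG1, a log2 fold change of -0.87 (SE 0.286, DESeq2 adjusted p 0.0181). All 3 fell to between 53.7% and 54.7% of the siControl mean, and their groups did not overlap. The siControl libraries differed most for MRPL18.

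MRPL20 (chromosome 1, 1337289 to 1342673, minus strand), a counterpart of a bacterial protein needed early in large subunit assembly, had the smallest adjusted p. It had 710.2 and 695 normalized counts in siControl and 427.8 and 429.6 in siTARG1, a log2 fold change of -0.71 (SE 0.126, DESeq2 adjusted p 5.1e-07). Both groups were tight, and MRPL20 was the one member that kept its call whichever library was left out, with an adjusted p of at most 0.0124. The joined MRPL30 region (chromosome 2, 99797615 to 99816024, plus strand) had 206.5 and 201.5 in siControl and 119.9 and 147.3 in siTARG1, a log2 fold change of -0.62 (SE 0.223, DESeq2 adjusted p 0.0347). It missed the threshold with exon counts (adjusted p 0.0594), and which of the joined genes gave the counts was not resolved. MRPL40 (chromosome 22, 19420068 to 19423598, plus strand), a protein of the mitochondrial lineage, had 252.2 and 239.6 in siControl and 169.8 and 167.6 in siTARG1, a log2 fold change of -0.54 (SE 0.197, DESeq2 adjusted p 0.0353). MRPS18A (chromosome 6, 43638939 to 43655528, minus strand), the paralog of the MRPS18 family that sits in the large subunit, had 342.8 and 364.8 in siControl and 262.2 and 253 in siTARG1, a log2 fold change of -0.45 (SE 0.165, DESeq2 adjusted p 0.0363).

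In the small subunit, MRPS16 and MRPS18C fell, and both descend from bacterial proteins. MRPS16 (chromosome 10, 75008601 to 75012451, minus strand) was at 578.3 and 628.2 normalized counts in siControl and 343.8 and 391.3 in siTARG1, a log2 fold change of -0.72 (SE 0.14, DESeq2 adjusted p 8.155e-06). MRPS18C (chromosome 4, 84377085 to 84390888, plus strand) had 322.6 and 326.6 in siControl and 224.7 and 181.1 in siTARG1, a log2 fold change of -0.67 (SE 0.184, DESeq2 adjusted p 0.00296). No library of siTARG1 reached the lowest siControl library for either gene. The third member of that family, MRPS18B, which stays in the small subunit, had 386.7 and 391 in siControl and 455.3 and 410.5 in siTARG1 and did not pass the test (adjusted p 0.535).

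MRPL10 (chromosome 17, 45900638 to 45908907, minus strand), which forms the base of the stalk that recruits translation factors, was the only member called higher. It had 310.3 and 311.1 normalized counts in siControl and 409.5 and 421.7 in siTARG1, a log2 fold change of 0.42 (SE 0.152, DESeq2 adjusted p 0.0363). MRPL12, which binds to MRPL10 in that stalk, had 620.5 and 717.6 in its joined region in siControl and 552.7 and 562.3 in siTARG1, a log2 fold change of -0.26 that did not pass with DESeq2 (adjusted p 0.156) and was called lower by edgeR (adjusted p 0.0312).

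**Figure D3:**
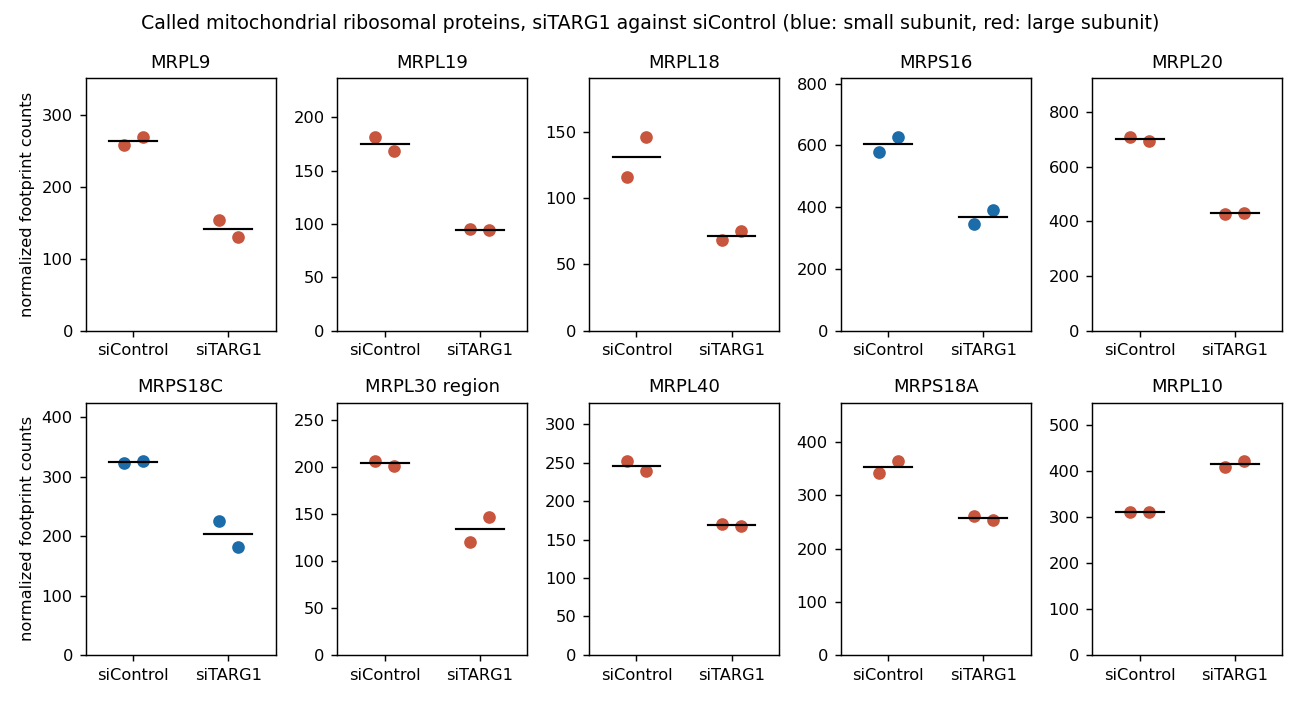
Normalized footprint counts (vertical axes from 0) of the 10 called members in the 2 siControl and 2 siTARG1 libraries, ordered by log2 fold change from MRPL9 (-0.89) to MRPL10 (0.42). Points are libraries, black lines are group means, blue marks the small and red the large subunit. The groups do not overlap in any panel.

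Members that did not pass included AURKAIP1, MRPL43 and MRPS34, whereas MRPL20, also among the densest, passed. AURKAIP1 had 1387 and 1254 normalized counts in siControl and 1145 and 1076 in siTARG1, a log2 fold change of -0.25 (DESeq2 adjusted p 0.0605), and edgeR called it lower (adjusted p 0.0127). MRPL43 and MRPS34 had log2 fold changes of -0.27 and -0.24, and edgeR called both lower (adjusted p 0.0187 and 0.0231). The largest positive fold changes after MRPL10 were 0.33 for MRPS35, which edgeR alone called (adjusted p 0.0311), and 0.31 for MRPL32, a protein matured by the m-AAA protease. DAP3 (0.05), PTCD3 (-0.05), CHCHD1 (-0.12), GADD45GIP1 (0.21) and MRPS30 (0.01) were nearer to 0 than 2 SE.

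The medians of the subunits lay close together in siTARG1 cells. The median log2 fold change was -0.15 over the small subunit, with 22 of 29 below 0, and -0.11 over the large subunit, with 29 of 50 below 0. Of the 29 in the small subunit 2 were called lower and none higher, and of the 50 in the large subunit 7 were called lower and 1 higher. Of all regions tested, 9.19% were called lower and 7.18% higher, and the counts by subunit have no test. The difference of the medians, -0.04, ranged from -0.16 to 0.05 when a library was left out. Split by origin, the medians were -0.19 (small, bacterial), -0.05 (small, mitochondrial lineage), -0.01 (large, bacterial) and -0.19 (large, mitochondrial lineage), so that neither subunit nor origin ordered the values in 1 way. Counterparts of bacterial proteins made up 7 of the 9 lower calls and 43 of the 80 members.

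Near-identical copies could take or lend reads, since a read was allowed up to 64 hits in the alignment. A pseudogene named after the gene is annotated for 36 members, whose median log2 fold change was -0.21. Of these 36, 7 were called lower, beside 9.19% of all regions. Over the 40 single-gene members without one, the median was -0.07, with MRPL18 and MRPL19 called lower and MRPL10 higher. The part of such copies in the fold changes and in the densities was not tested.

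**Figure D4:**
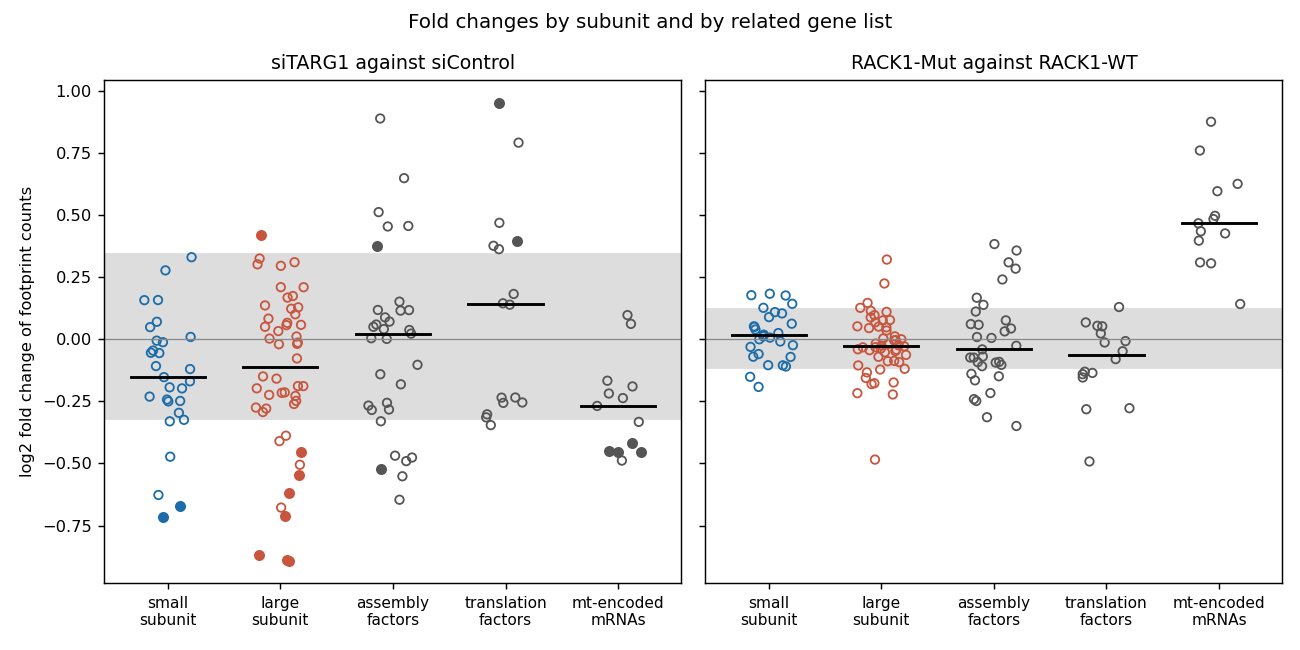
Log2 fold change of footprint counts in siTARG1 against siControl (left) and RACK1-Mut against RACK1-WT (right) for small and large subunit members and for 3 related gene lists. Each point is a region, filled where its DESeq2 adjusted p was under 0.05, black lines are medians, and the grey band spans the quartiles of all regions tested. The subunit medians lie at -0.15 and -0.11 on the left and at 0.02 and -0.03 on the right, where no point is filled.

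The other genes of the pathway did not share 1 direction. As a background for the calls in this paragraph, 9.19% of all regions were called lower and 7.18% higher. Of 33 mitoribosome assembly factors 1 fell and 1 rose, with a median log2 fold change of 0.02. FASTKD2, an RNA-binding protein needed for the large subunit rRNA, fell from 288.3 and 325.4 to 216.4 and 209.2 normalized counts (log2 fold change -0.52, DESeq2 adjusted p 0.0249). AFG3L2, a subunit of the m-AAA protease, rose from 494.8 and 501.8 to 628.4 and 665.7 (log2 fold change 0.38, DESeq2 adjusted p 0.0204). Of 16 mitochondrial translation factors 2 rose and none fell, with a median of 0.14. They were the elongation factor GFM1 (572.2 and 560.3 in siControl, 734.1 and 755.7 in siTARG1, log2 fold change 0.39, DESeq2 adjusted p 0.00795) and GUF1 (47.5 and 38.1 against 82.4 and 84.3, log2 fold change 0.95, DESeq2 adjusted p 0.0433). Cytosolic ribosomal proteins, the counterpart list, had a median of -0.11 with 72 of 85 below 0, 15 called lower and 2 higher. A median below 0 is thus found in both sets of ribosomal proteins, before removal of the length trend or of genes with pseudogenes. The part of either in the median of the cytosolic set was not tested.

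Counts on the 13 mitochondrially encoded mRNAs, which mitochondrial ribosomes translate, had a median log2 fold change of -0.27 in siTARG1. Of the 13, 4 were called lower and none higher, beside 9.19% and 7.18% of all regions. Whether these reads are footprints of mitochondrial ribosomes was not tested. MT-ND5 had 1266 and 1384 normalized counts in siControl and 886.5 and 1100 in siTARG1, a log2 fold change of -0.42 (SE 0.114, DESeq2 adjusted p 0.00267). MT-ND4, MT-ATP6 and MT-ND2 had log2 fold changes of -0.45, -0.45 and -0.46. MT-CO1, with the most counts of the list, had 4848 and 3512 in siControl and 3231 and 4100 in siTARG1, and its groups overlapped. These mRNAs took 0.39% and 0.333% of coding counts in siControl and 0.278% and 0.343% in siTARG1, so the groups overlapped in the sum as well.

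Earlier results of these data pointed to the word TGAACATA in the 3′ UTRs of regions that fell in siTARG1 cells, and its 7-letter parts (TGAACAT and GAACATA) were looked up in the members. They were present in 4 of the 9 members called lower (44.4%) and in 10 of the other 71 (14.1%). Over all regions tested, they were present in 36.9% of those called lower and 16.6% of the others. These shares are not corrected for 3′ UTR length. Among the 4 members, that length ran from 306 nt (MRPL18) to 6921 nt (MRPL19). Among the other members called lower, it ran from 113 nt (MRPL40) to 2003 nt (MRPS16). The median log2 fold change was -0.23 over the 14 members with such a part and -0.11 over the 66 without. The stretches in the 4 members, on GRCh37 with the matched letters in capitals, are shown because they belong to the members with the largest falls and to the MRPL30 region. For MRPL19, which has 3 such stretches, the one nearest to the stop codon is given.

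MRPL9 (chr1:151732154-151732180, minus strand): tcatccaaacTGAACATttgtatccca

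MRPL19 (chr2:75882486-75882512, plus strand): tcatttataaGAACATAgtaattaagt

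MRPL18 (chr6:160219165-160219191, plus strand): ttaattgtttTGAACATgtaaatataa

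MRPL30 (chr2:99812683-99812709, plus strand): tggcaatgttTGAACATctgcgtttgg

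The other 5 lower members (MRPL20, MRPL40, MRPS16, MRPS18A and MRPS18C) held no such letters. The word TGAATATA, noted earlier for regions that rose, had no part in the 3′ UTR of MRPL10 and a part in 16 of the other 79 members (20.3%). MRPL19, MRPL30 and MRPS18C, which were called lower, are among these 16. Over all regions tested, a part was held by 46.4% of those called higher and 23.0% of the others. Both words were chosen on these libraries, so these shares are a description and no independent evidence.

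No member was called in RACK1-Mut cells. DESeq2 called 0 of 80 members, against 0.0799% of the 12520 regions tested, and edgeR's quasi-likelihood test also called 0, against 0.24%. At an unadjusted p under 0.05 there were 0 members, against 1.64% of all regions. Both RACK1-Mut libraries lay below both RACK1-WT libraries for 15 members (18.8%), against a background of 18.9%, and above them for 17 (21.2%), against 18.7%. These shares are near the background. The members' log2 fold changes had quartiles of -0.07 and 0.05, narrower than the -0.11 and 0.12 of all regions, and a median of -0.01. Their SE was also smaller, with a median of 0.143 against 0.2265 over all regions, and its part in the narrower spread was not tested. The median log2 fold change was 0.02 over the small and -0.03 over the large subunit, a difference of 0.04.

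The members with the largest differences still lay within 2 SE of 0. MRPL57, a large subunit protein of the mitochondrial lineage, had 216.4 and 229.6 normalized counts in RACK1-WT and 264.8 and 292.7 in RACK1-Mut, a log2 fold change of 0.32 (SE 0.168, DESeq2 adjusted p 0.9999). MRPL41, also of the large subunit, had 384.9 and 456.7 in RACK1-WT and 493.9 and 489.1 in RACK1-Mut, a log2 fold change of 0.22. MRPS35, of the small subunit, had 418.2 and 458.4 in RACK1-WT and 507 and 487.8 in RACK1-Mut, a log2 fold change of 0.18. In each of these the groups did not overlap, as in the next ones on the other side. MRPL46 had 109.8 and 118.5 in RACK1-WT and 94.2 and 101.5 in RACK1-Mut (log2 fold change -0.22), MRPL21, counterpart of a bacterial protein, had 347.8 and 300.7 against 285.1 and 272.9 (-0.22), and MRPS14 had 215.6 and 218.2 against 184.9 and 195.1 (-0.19). The MRPL38 region, with 14.5 to 26.1 normalized counts in a library, had the most negative log2 fold change at -0.48, with an SE of 0.576.

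The 10 members called in siTARG1 cells had log2 fold changes between -0.17 (MRPL18) and 0.15 (MRPL40) in this comparison. MRPL20 had 1061 and 1030 normalized counts in RACK1-WT and 1071 and 1019 in RACK1-Mut, and MRPS16 had 699.5 and 689.6 against 693.1 and 702.7. MRPL9 had 349.4 and 371 against 301.8 and 345.4, a log2 fold change of -0.16. Across the 74 single-gene members, the fold changes of the comparisons, which share no libraries, had a Spearman correlation of 0.04, given as a description. None of the assembly factors, translation factors, mitochondrially encoded mRNAs or cytosolic ribosomal proteins was called in RACK1-Mut cells. The mitochondrially encoded mRNAs had a median log2 fold change of 0.47, but their share of coding counts was 0.0823% and 0.143% in RACK1-WT and 0.118% and 0.196% in RACK1-Mut, with the second library above the first in both groups and the groups overlapping.

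Levels also differed between the experiments, whose cells, vectors, doxycycline and processing cannot be told apart as sources. All 4 RACK1 libraries lay above all 4 siRNA libraries in density for 27 members (33.8%), against 19.8% of the 11854 regions tested in both comparisons, and below them for 10 (12.5%), against 20.2%. The largest ratios of RACK1-WT to siControl were 2.1 for the joined MRPS28 region, 2.04 for MRPS25 and 1.86 for MRPL24. MRPS25, of the small subunit, had a density of 44.5 to 52.5 in the siRNA libraries and 101.2 to 122.5 in the RACK1 libraries. At the other end, MRPS2, of the small subunit, had 94.2 to 108 in the siRNA libraries and 66.8 to 69.5 in the RACK1 libraries, a ratio of 0.648, and MRPL44, of the large subunit, had a ratio of 0.661. Such orders held in either subunit: 8 small and 18 large subunit members were higher in the RACK1 libraries, and 3 small and 7 large subunit members were higher in the siRNA libraries. The rank order of the members was otherwise close, with a Spearman correlation of density of 0.92 between siControl and RACK1-WT over the 74 single-gene members, which share their coding lengths.

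**Figure D5:**
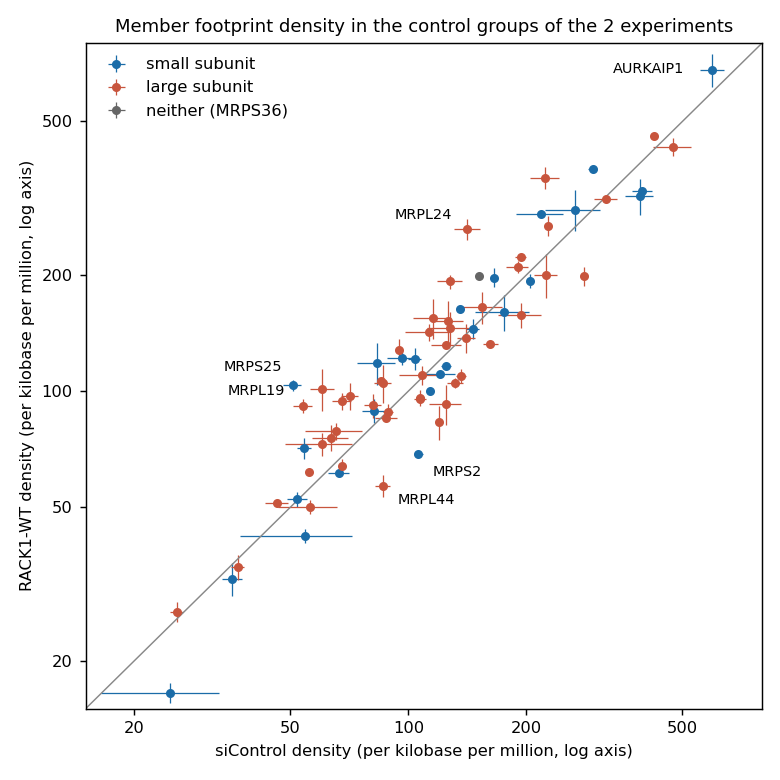
Mean footprint density (per kilobase per 1000000 coding counts, log axes) of the 74 single-gene members in siControl (horizontal) and RACK1-WT (vertical), with SD over 2 libraries as error bars and equal density as the grey line. MRPS25, MRPL24 and MRPL19 lie above the line, by 2.04, 1.86 and 1.70 times, and MRPS2 and MRPL44 below it, at 0.648 and 0.661 times.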

How the data were processed

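Per the labels and the study's methods, RNase I footprints of 28 to 34 nt were cloned with molecular identifiers, cleared of rRNA with Bowtie 1.1.2 and aligned with TopHat2 2.1.1 to transcripts only, with up to 64 hits per read. The sources used here do not say whether identifiers were collapsed. With Plastid, the authors made whole-number counts, the deposited values, for exons, 5′ UTRs, coding sequences and 3′ UTRs of 20165 regions (GENCODE 24, hg19), from reads of 26 to 36 nt. Headers give an offset of 14 nt from the 5′ end and the methods one from the 3′ end, which matters at the edges of coding sequences and was not resolved. Symbols came from GENCODE 44 on GRCh37 (19633 regions matched, 532 did not). Genes on both X and Y are listed in 2 copies, and lists use 1. RNA-seq was not analysed here, so values are footprint abundance, not translation efficiency.

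Coding counts of regions with at least 10 counts over the 4 libraries of a comparison were tested with DESeq2 1.42.0 (Wald test, R 4.3.3), adjusted by Benjamini-Hochberg over all regions and called at 0.05. The script was checked on simulated counts. Alternatives were edgeR 4.0.16, TMM factors, other filters, exon counts, a replicate block, 8 libraries in 1 fit, a threshold of 0.1, removal of a length trend or of members with pseudogenes, and leaving out each library. Subunit medians and shares have no test. Named members are those called, the 3 largest rises and falls with a mean count of at least 100, the 3 highest and lowest densities, and DAP3, PTCD3, AURKAIP1, CHCHD1, GADD45GIP1, MRPL12, MRPS30 and MRPS18A. Other members and the comparison of the experiments were added after their values were seen. Members, lists and tests were chosen with earlier results of these data known.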

Additional observations from a re-analysis of the deposited data

How the results depend on the processing

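For siTARG1, 10 members were called in the main setting, 23 with edgeR's quasi-likelihood test and TMM (21 lower), 16 in a fit of all 8 libraries, 5 with the replicate block and 3 of 40 members without pseudogenes or joined regions. With 1 library left out, where the lone library of a group is assumed to vary like the other group, 2 to 3 members were called. The other settings gave 9 to 13 calls, and RACK1-Mut had 0 calls in every setting. Same-numbered libraries deviated together with a correlation of 0.0306 (siRNA) and 0.0829 (RACK1) over all regions and of 0.193 and 0.0908 over 79 members. With 2 pairs and no shared source in the labels, replicate numbers were not taken to pair them. Under the block MRPL10, MRPL18, MRPL30, MRPL40 and MRPS18A missed the threshold.

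The median log2 fold change of the members in siTARG1 was -0.080 after removal of the length trend, -0.066 without pseudogenes or joined regions, and -0.16 to -0.089 with a library left out. In RACK1-Mut it was -0.024 without pseudogenes or joined regions and -0.020 to 0.0089 with a library left out, above 0 without RACK1-Mut replicate 1. The difference between small and large subunit medians ranged from -0.16 to 0.046 (siTARG1) and from 0.028 to 0.050 (RACK1-Mut) with a library left out. The small subunit's share differed by -0.16 percentage points in siTARG1 with exon counts, and the density ratio of the subunits was 0.872 with exon counts. The ratio over single-gene regions, 1.06, was added after seeing the data.

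Named members near 0 changed sign. With exon counts the MRPL38 region was at -0.014 in siTARG1 and GADD45GIP1 at 0.0041 in RACK1-Mut, and with the block MRPL20 was at -0.00046 in RACK1-Mut. With a library left out, the log2 fold changes in siTARG1 ranged from -0.26 to 0.019 for CHCHD1, from -0.12 to 0.0045 for PTCD3 and from -0.046 to 0.054 for MRPS30. In RACK1-Mut they ranged from -0.11 to 0.042 for DAP3, from -0.11 to 0.11 for GADD45GIP1, from -0.065 to 0.00055 for MRPL12, from -0.038 to 0.036 for MRPL20, from -0.076 to 0.066 for MRPL43, from -0.13 to 0.032 for MRPS30 and from -0.13 to 0.091 for PTCD3. The cause was not tested. Depth limits small changes: the median SE of a member's log2 fold change was 0.186 in siTARG1 and 0.143 in RACK1-Mut.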
